A study of Mus musculus with 8 samples.

Results

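The calcium transport and calcium sensing genes described here are 10 genes of the mouse mammary gland: the pumps Atp2c1, Atp2c2, Atp2b1, Atp2b2, Atp2a2 and Atp2a3, the store-operated entry genes Orai1 and Stim1, the calcium-sensing receptor Casr, and Pthlh, which encodes the hormone PTHrP. They were picked by gene name, and all 10 were found among the 55933 genes of the deposited expression table. Of the 10, 8 were among the 15143 genes with a mean of at least 0.5 FPKM over the libraries and were tested, whereas Atp2b2 and Casr lay below that level in both groups.

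Libraries for RNA-seq were made from the mammary epithelial cells of female mice on a C57BL/6 background at pregnancy day 14.5, in 4 control and 4 Bmpr1a conditional knockout (cKO) mice, with 1 library from each mouse. The comparison asks what loss of the BMP receptor BMPR1a in myoepithelial cells does to the epithelium during pregnancy. The cKO mice carried K14-rtTA and teto-Cre with floxed Bmpr1a on both alleles (genotype K14-rtTA;teto-Cre;Bmpr1a fl/fl). They drank doxycycline (Dox) with sucrose until the cells were taken, so that Cre was switched on where the K14 promoter is active, which is in myoepithelial cells. The controls were littermates, called wild type in the sample labels, and their alleles at these loci, whether they drank Dox, and the age of the mice used for RNA are not given in the sources used here. The cells came from collagenase and hyaluronidase digestion, which the paper describes as a step against fat tissue, followed by lysis of red blood cells. No cell layer was sorted, so each library mixes luminal and myoepithelial RNA with that of any other cells carried along. Reads on genes numbered from 16456480 to 18778823 in the control libraries and from 16123108 to 19896988 in the cKO libraries.

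Expression is given as FPKM (fragments per kilobase of gene, relative to a library size set by size factors) as mean ± SD with n = 4 mice per group unless stated, and levels are compared between genes only on this scale, which is per length. The groups were compared with limma on the log2(FPKM + 1) scale. All fold changes are on that scale, where the added 1 shrinks those of low genes. Values of single mice are listed in the order of replicates 1 to 4. The adjusted p of limma was corrected over all 15143 genes, and a gene was called at an adjusted p under 0.05.

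The targeted gene does not separate the groups. Bmpr1a was at 10.6, 11.7, 8.74 and 9.52 FPKM in the 4 controls and at 12.0, 12.0, 10.2 and 10.4 FPKM in the 4 cKO libraries. Its RNA was thus no lower in the cKO libraries, and the groups overlapped (log2 fold change 0.13, limma adjusted p = 0.560). Luminal RNA is counted here too, and whether the reads cover the part of Bmpr1a that Cre removes was not tested, so this check says little about the deletion itself. The direction of every difference below therefore rests on the sample labels, and "cKO libraries" means the libraries labelled cKO. Defining markers of the labelled epithelium were abundant in the control and cKO groups, with luminal Krt8 at 1763 and 1780 FPKM and, of the myoepithelial markers, Acta2 at 825 ± 164 and 953 ± 160 FPKM and Krt14 at 753 ± 93.7 and 577 ± 88.9 FPKM.

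Milk holds far more calcium than the blood plasma that supplies it, and alveolar cells move this calcium from their blood-facing side to milk while keeping free calcium in the cytosol low. Pumps of the Golgi load calcium into the secretory pathway together with casein, pumps of the plasma membrane export it across the apical surface, and pumps of the endoplasmic reticulum fill the store whose emptying opens entry channels at the cell surface. The calcium-sensing receptor and PTHrP connect the gland's calcium supply with the skeleton of the mother, mainly in lactation.

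Among the 8 tested genes, 1 was called, the Golgi pump Atp2c2, which was higher in the cKO libraries. Over all 15143 genes tested, 135 were called, which is 0.892%. At an unadjusted limma p under 0.05 there were 3 of the 8, with Atp2c2 and Atp2c1 higher and Stim1 lower, against 16.4% of all genes tested. With FPKM scaled to the same sum in every library there were also 3, but 1 higher and 2 lower, since Atp2c1 left this count and Atp2a3, with a lower mean, entered it. Atp2c2, Atp2c1 and Stim1 had no overlap between the groups, against 10.7% of all genes tested. The mean was higher in the cKO libraries for 3 of the 8 and lower for 5, and the median log2 fold change was -0.115 over the 8 genes and 0.000715 over all genes tested. The genes left out of the test were low in both groups.

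**Figure D1:**
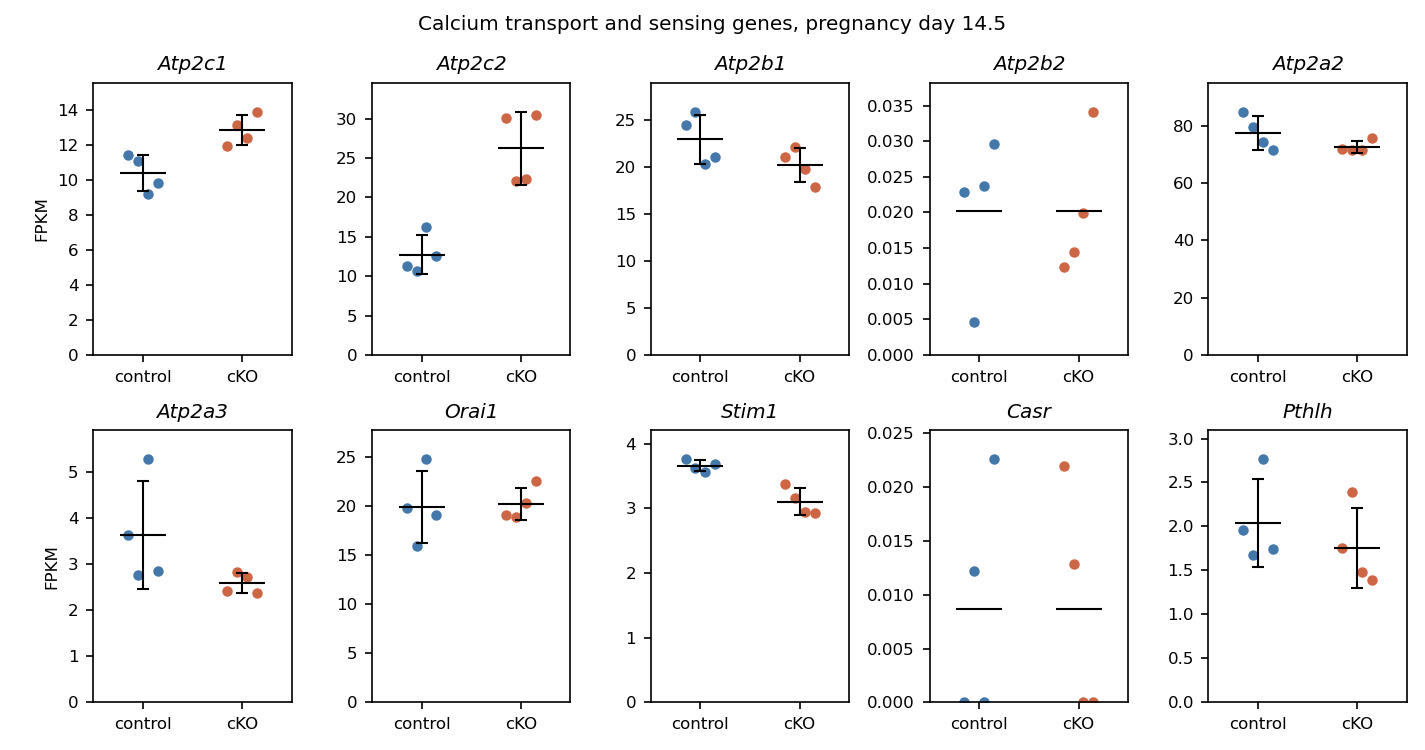
Expression of the 10 calcium genes in FPKM (vertical axes, each starting at 0 and each with its own scale) in control and cKO libraries. Points are single mice, horizontal lines are group means and bars are 1 SD with n = 4, not drawn for Atp2b2 and Casr, which were not tested. The cKO libraries lie above all control libraries for Atp2c1 and Atp2c2 and below them for Stim1.

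Atp2c2 encodes SPCA2, a calcium and manganese pump of the secretory pathway that is abundant in secretory epithelia (chr8:119700009-119757717, plus strand, GRCm38). It was at 11.3, 10.7, 16.2 and 12.6 FPKM in the 4 controls and at 30.0, 22.1, 22.3 and 30.5 FPKM in the 4 cKO libraries. Every cKO library lay above every control library, and the highest control, replicate 3, stayed below the lowest cKO library. Atp2c2 rose from 12.7 ± 2.47 to 26.2 ± 4.65 FPKM, a ratio of 2.07 between the group means. The log2 fold change was 0.99 with a standard error of 0.15 and a 95% interval from 0.65 to 1.33 (limma adjusted p = 0.0316). Of all genes tested it ranked 51 by p and 40 by fold change from the top. Each value rests on 596 to 1868 reads. The difference was 1.16 on the log2 scale between the means of replicates 1 and 2 of each group and 0.82 between those of replicates 3 and 4.

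The call for Atp2c2 lay close to the threshold. Over the 18 alternative settings its limma adjusted p ranged from 0.0107 to 0.0924 and its log2 fold change from 0.92 to 1.11. The call was lost in 9 of the 18. These were the fit without a filter on low values (limma adjusted p = 0.0825), the fit with the replicate number as a block (0.0633), and those without control replicate 1 (0.0890), control replicate 2 (0.0873), control replicate 3 (0.0544), control replicate 4 (0.0924), cKO replicate 1 (0.0587), cKO replicate 2 (0.0524) and cKO replicate 4 (0.0785). It was kept without cKO replicate 3 (0.0472).

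Milk genes were higher in the same libraries. The summed FPKM of 10 alveolar milk genes was 4174, 4593, 5669 and 6038 in the 4 controls and 9201, 9965, 11650 and 16310 in the 4 cKO libraries, led by Csn1s2a at 2041 and 5581 FPKM in the control and cKO groups. The cKO mean was the higher for all 10, and none of the 10 was at 0. A limma adjusted p under 0.05 was reached by 4 of the 10, against 0.892% of all genes tested. Summed adipocyte markers were also higher in the cKO libraries, at 2.32 to 4.54 FPKM in controls and 5.97 to 30.3 FPKM in cKO libraries. The library of cKO replicate 4, the highest for Atp2c2 and for both sums, also had the highest sum of 9 genes that respond to tissue digestion, at 2034 FPKM against 983 to 1254 FPKM in the other libraries. Of that sum, the heat shock genes Hspa1b and Hspa1a made up 574 and 284 FPKM. Fos, at 120 and 127 FPKM in cKO replicates 1 and 4, was at 52.3 to 65.6 FPKM in the other libraries. Those 2 cKO replicates were also the libraries highest for Atp2c2. These 3 genes were named after their values had been seen. In cKO replicate 1, Atp2c2 was nearly as high as in cKO replicate 4, at 30.0 against 30.5 FPKM. Yet cKO replicate 1 had the lowest milk and adipocyte sums of the cKO group, at 9201 and 5.97 FPKM. Without cKO replicate 4 the log2 fold change of Atp2c2 was 0.92. In libraries of mixed cells, a change in the number of cells of a type and a change in RNA per cell cannot be told apart. The part of cell composition or digestion in the Atp2c2 result was not tested.

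Atp2c1 encodes SPCA1, the widely expressed pump of the same family (chr9:105403539-105527319, minus strand). It was at 11.5, 11.1, 9.22 and 9.83 FPKM in the 4 controls and at 11.9, 13.1, 12.4 and 13.9 FPKM in the 4 cKO libraries. The groups did not overlap, although control replicate 1 and cKO replicate 1 lay close together. The means were 10.4 ± 1.05 and 12.9 ± 0.866 FPKM, and the log2 fold change of 0.28 (standard error 0.08, 95% interval from 0.10 to 0.47) did not pass the correction (limma adjusted p = 0.142). An exon of Atp2c1 overlaps Aste1 on the opposite strand over 1138 bases, and strand-specific counting is not stated. Aste1 had at most 239 reads in any library, against at least 1497 for Atp2c1.

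The relation between the pair of Golgi pumps was uneven among controls. The ratio of Atp2c2 to Atp2c1 FPKM was 0.987, 0.962, 1.76 and 1.28 in the 4 controls and 2.52, 1.68, 1.80 and 2.19 in the 4 cKO libraries. Control replicate 3 reached the range of the cKO libraries, so these ratios overlapped. This ratio is 1 of 4 that were chosen after the values had been seen, and all are given without a test. The ratio of Atp2b1 to Atp2c2 was 1.88 ± 0.518 in controls and 0.793 ± 0.185 in cKO libraries, that of Orai1 to Stim1 was 5.46 ± 1.08 and 6.56 ± 0.920, and that of Atp2a2 to Atp2a3 was 22.9 ± 6.29 and 28.3 ± 3.09.

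Atp2b1 encodes PMCA1, a calcium pump of the plasma membrane found in most cells (chr10:98914406-99026143, plus strand). It was at 24.4, 25.9, 20.3 and 21.1 FPKM in the 4 controls and at 21.0, 22.1, 19.7 and 17.9 FPKM in the 4 cKO libraries. Control replicates 1 and 2 were the highest libraries, and the groups overlapped in the remaining ones. The log2 fold change was -0.17 with a 95% interval from -0.39 to 0.04 (limma adjusted p = 0.411), an interval that spans 0. Its standard error was 0.095, and 0.051 with replicates 1 and 2 as a block apart from 3 and 4. With that block the unadjusted limma p was 0.0105, but Atp2b1 was not called (limma adjusted p = 0.113).

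Atp2b2 encodes PMCA2, the plasma membrane pump known for carrying calcium into milk in lactation (chr6:113743831-114042613, minus strand). It was near 0 at this stage in both groups, with 5, 1, 5 and 7 reads in the 4 controls and 3, 3, 4 and 8 reads in the 4 cKO libraries. The sum was 18 reads in each group, and the mean was 0.0202 FPKM in each. At this depth 3 reads of Atp2b2 correspond to 0.0123 to 0.0150 FPKM, so only a large difference could have been detected.

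Atp2a2 encodes SERCA2, the main pump that fills the endoplasmic reticulum, and it was the most abundant of the 10 genes in every library (chr5:122453513-122502225, minus strand). It was at 85.0, 79.7, 74.2 and 71.7 FPKM in the 4 controls and at 72.0, 71.5, 71.5 and 75.7 FPKM in the 4 cKO libraries. Control replicates 1 and 2 were above all other libraries, and control replicates 3 and 4 lay among the cKO libraries. The log2 fold change was -0.09, with a 95% interval from -0.25 to 0.06 (limma adjusted p = 0.558). It was -0.05 without control replicate 1 and -0.15 when FPKM were scaled to the same sum in every library. It was -0.19 between the means of replicates 1 and 2 and 0.01 between those of replicates 3 and 4. An exon overlaps Gm43361 on the opposite strand, which had at most 6 reads.

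Atp2a3 encodes SERCA3, a reticulum pump of blood cells and some epithelia (chr11:72961169-72993044, plus strand). It was at 3.63, 2.77, 5.28 and 2.85 FPKM in the 4 controls and at 2.42, 2.84, 2.73 and 2.38 FPKM in the 4 cKO libraries. The control group spread widely, with a coefficient of variation of 32.1% against 8.74% in the cKO group, and control replicate 3 was the highest library. The log2 fold change was -0.34, with a 95% interval from -0.69 to 0.01 (limma adjusted p = 0.324). Without control replicate 3 it was -0.18. The same library had the highest sum of 7 lymphocyte markers, at 49.8 FPKM against 8.15 to 19.3 FPKM in the other controls and 4.84 to 8.42 FPKM in the cKO libraries. The most abundant of these markers was Jchain, at 9.17 and 3.21 FPKM in the control and cKO groups, none of the 7 was at 0, and their part in the Atp2a3 values was not tested.

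Golgi pumps took a larger share of all calcium pump RNA in the cKO libraries. Over the 9 pump genes, which add Atp2a1, Atp2b3 and Atp2b4 to the 6 above, the Golgi pair made up 16.4, 16.4, 20.0 and 18.7% of summed FPKM in the 4 controls and 30.0, 26.3, 26.6 and 31.1% in the 4 cKO libraries. Every cKO library lay above every control. The reticulum pumps held 62.8 ± 0.931% in controls and 55.2 ± 1.55% in cKO libraries, and the plasma membrane pumps held 19.3 ± 1.63% and 16.3 ± 1.66%. The summed level was 130 ± 7.84 FPKM in controls and 137 ± 5.54 FPKM in cKO libraries. These shares were chosen after the values had been seen and are given without a test, and a higher share of Atp2c2 lowers the others by construction.

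**Figure D2:**
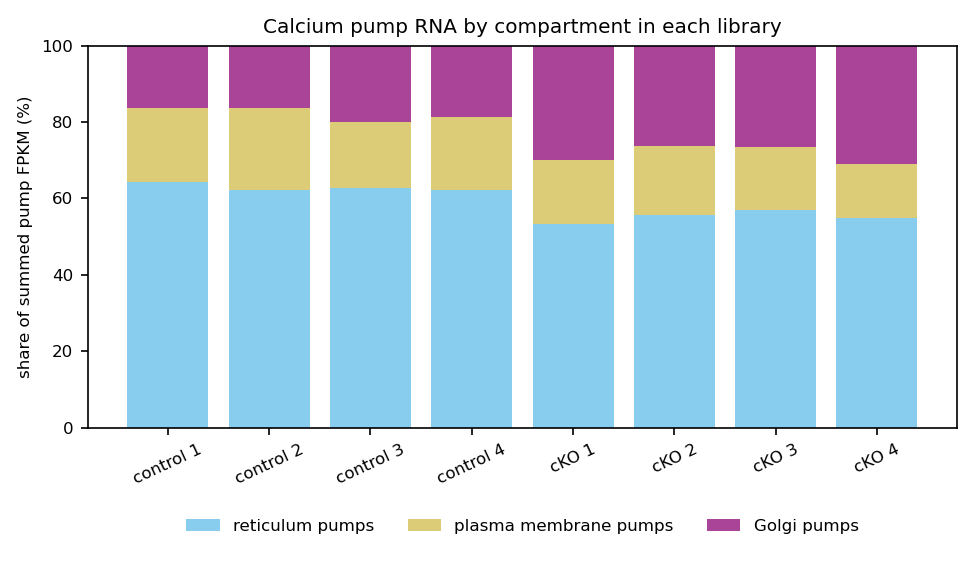
Share of the summed FPKM of 9 calcium pump genes (vertical axis, percent) held by pumps of the reticulum, the plasma membrane and the Golgi in each of the 8 libraries. The Golgi share is at most 20.0% in the control libraries and at least 26.3% in the cKO libraries.

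Orai1 forms the pore of the store-operated calcium channel at the cell surface (chr5:123015074-123030456, plus strand). It was at 19.8, 16.0, 24.8 and 19.1 FPKM in the 4 controls and at 19.1, 18.9, 20.3 and 22.5 FPKM in the 4 cKO libraries. Both the lowest and the highest library were controls, replicates 2 and 3. The log2 fold change was 0.03, with a 95% interval from -0.24 to 0.31 (limma adjusted p = 0.920), and its sign turned when FPKM were scaled to the same sum in every library (-0.02), without control replicate 2 (-0.06) and without cKO replicate 4 (-0.02).

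Stim1 encodes the sensor of the reticulum store that opens Orai1 when the store empties (chr7:102267806-102437319, plus strand). It was at 3.76, 3.62, 3.56 and 3.69 FPKM in the 4 controls and at 3.38, 3.16, 2.94 and 2.93 FPKM in the 4 cKO libraries. All cKO libraries were below all controls, and the controls varied by 2.36% (coefficient of variation), the smallest spread of the 8 tested genes in that group. With 484 to 718 reads per library, that spread is below counting error and may understate the variation between mice. The means were 3.66 ± 0.0863 and 3.10 ± 0.212 FPKM, and the log2 fold change was -0.18 (standard error 0.06, 95% interval from -0.33 to -0.04). It did not pass the correction (limma adjusted p = 0.203), nor did it in any of the 18 alternative settings, where the limma adjusted p was 0.0977 to 0.357 and the log2 fold change -0.24 to -0.16.

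Casr encodes the calcium-sensing receptor, which reads extracellular calcium (chr16:36493696-36562141, minus strand). It had 0, 1, 0 and 2 reads in the 4 controls and 2, 1, 0 and 0 reads in the 4 cKO libraries. With 3 reads in all in each group, its level lay at or under the floor of 3 reads per library, 0.0329 to 0.0400 FPKM, and a difference was not detectable at this depth. Pthlh encodes PTHrP, which signals through the receptor Pth1r (chr6:147252101-147264183, minus strand). It was at 1.96, 1.68, 2.76 and 1.74 FPKM in the 4 controls and at 1.76, 2.40, 1.48 and 1.40 FPKM in the 4 cKO libraries. The groups overlapped, and control replicate 3 was again the highest library. With 38 to 75 reads per library, the log2 fold change was -0.14 and its 95% interval ran from -0.47 to 0.19 (limma adjusted p = 0.683). It was -0.03 without control replicate 3 and -0.24 without cKO replicate 2, the ends of the range with 1 library left out. The difference was 0.12 on the log2 scale between the means of replicates 1 and 2 and -0.40 between those of replicates 3 and 4. Floors in reads cover counting error only.

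In order of mean FPKM over the 8 libraries, Atp2a2 came first, followed by Atp2b1, Orai1, Atp2c2, Atp2c1, Stim1, Atp2a3, Pthlh, Atp2b2 and Casr. Atp2a2 was above Atp2b1, Atp2c1 above Stim1, Atp2a3 above Pthlh, and Pthlh above Atp2b2 in 8 of 8 libraries. Atp2b1 was above Orai1 in only 5 of 8 libraries, Stim1 above Atp2a3 in 7 and Atp2b2 above Casr in 6, so these neighbours are not clearly apart. The place of Atp2c2 differed by group. It was below Orai1 in 4 of 4 control libraries and above it in 4 of 4 cKO libraries, and it was above Atp2c1 in 2 of 4 control libraries and in 4 of 4 cKO libraries. In every cKO library it was the gene with rank 2 of the 10, although in cKO replicate 2 it was level with Atp2b1, at 22.11 and 22.09 FPKM.

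A wider list of calcium genes, arranged by role, had 67 genes in the table, of which 46 were tested. In this list 1 gene was called, Nucb2 (0.892% of all genes tested were), and 8 had an unadjusted limma p under 0.05 (16.4% of all genes), 4 with the higher mean in the cKO libraries and 4 with the lower. Groups did not overlap for 2 higher and 3 lower genes (10.7% of all genes in either direction). These counts are near the shares over all genes. The mean was higher for 16 and lower for 30, and the median log2 fold change was -0.0325.

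The called gene belongs to the calcium-binding proteins of the secretory pathway, a role with 10 of the 46 tested genes that was not compared with the other roles. Nucb2, which encodes nucleobindin-2, a calcium-binding protein that is also the precursor of nesfatin, was at 29.2, 27.8, 31.8 and 33.8 FPKM in the 4 controls and at 54.4, 48.0, 42.5 and 56.4 FPKM in the 4 cKO libraries. All cKO libraries were above all controls, and Nucb2 rose by a log2 fold change of 0.69 (standard error 0.10, 95% interval from 0.46 to 0.92, limma adjusted p = 0.0291). Like that of Atp2c2, its call was lost without a filter on low values (limma adjusted p = 0.0793), with the replicate number as a block (0.0531) and without each library but cKO replicate 3 (0.0400), at 0.0775, 0.0801, 0.0682 and 0.0837 without control replicates 1 to 4 and 0.0575, 0.0580 and 0.0702 without cKO replicates 1, 2 and 4. The related Nucb1 was at 21.0 ± 1.22 FPKM in controls and 18.4 ± 0.828 FPKM in cKO libraries (limma adjusted p = 0.218). The reticulocalbins Rcn1 and Rcn2, which bind calcium in the secretory pathway, were also lower in every cKO library than in any control. Rcn1 was at 24.1 ± 1.40 and 18.3 ± 1.69 FPKM (log2 fold change -0.39, limma adjusted p = 0.0603), and Rcn2 at 9.25 ± 0.734 and 7.59 ± 0.727 FPKM (limma adjusted p = 0.180). Rcn1 was called lower in 3 of the 18 alternatives, limma-voom without (adjusted p = 0.0425) and with the replicate block (0.0414) and limma with replicates 1 and 2 as a block apart from 3 and 4 (0.0411), and over all 18 its adjusted p ranged from 0.0411 to 0.145. Calr, the reticulum chaperone calreticulin and the most abundant gene of this role, was at 301 ± 13.7 and 289 ± 9.34 FPKM with overlap.

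**Figure D3:**
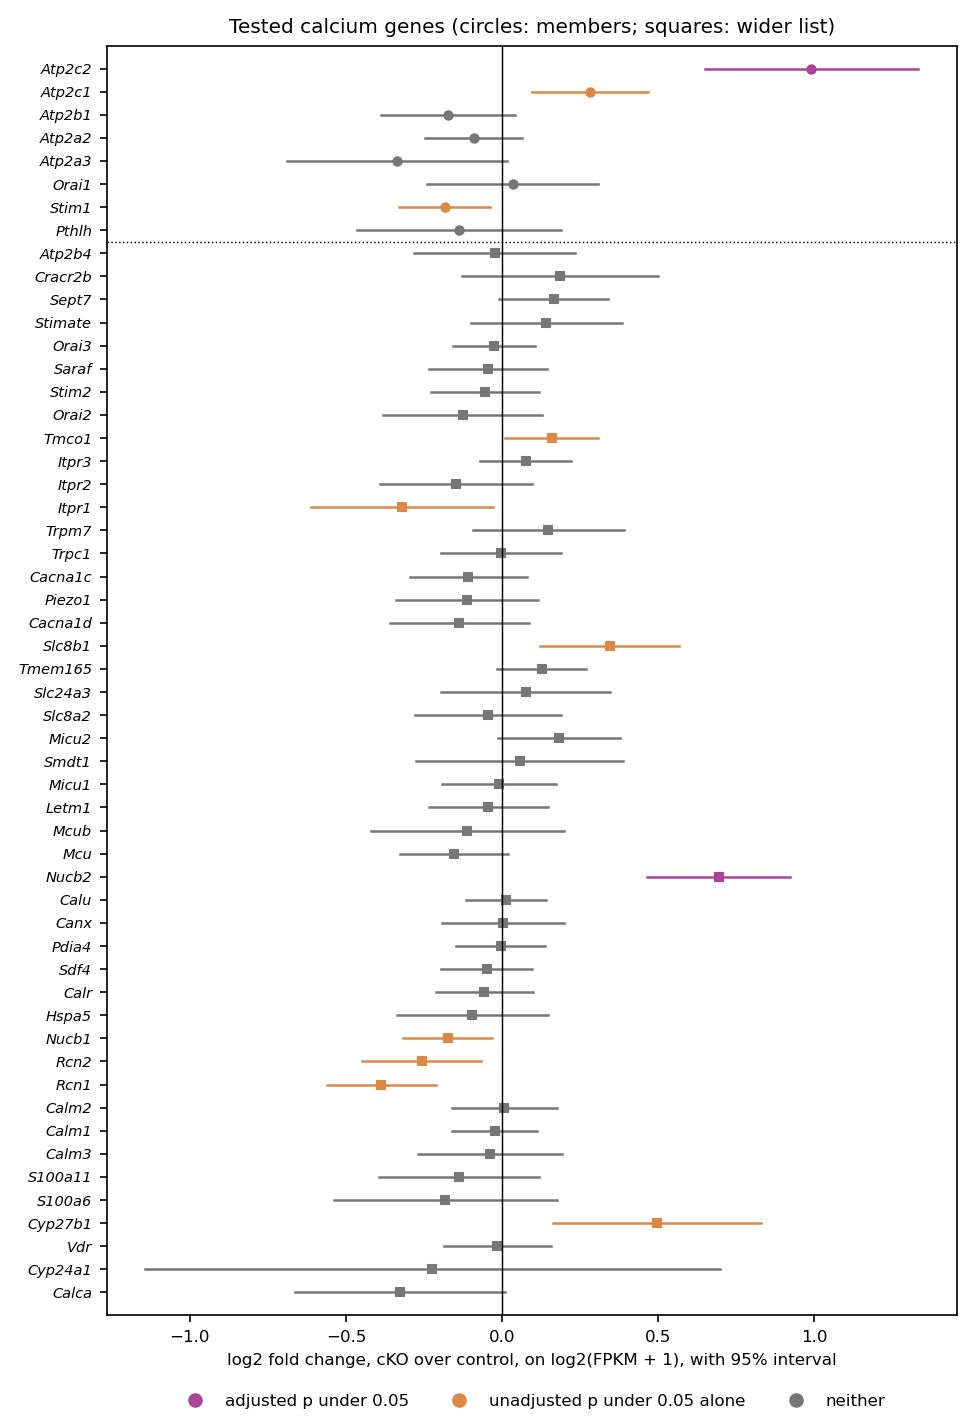
Log2 fold change of cKO over control libraries on log2(FPKM + 1) (horizontal axis) with its 95% interval for the 8 tested calcium genes (circles, above the dotted line) and the 46 tested genes of the wider list (squares), n = 4 mice per group. Colours mark the limma adjusted p under 0.05, held by Atp2c2 and Nucb2, the unadjusted p under 0.05 alone, and neither.

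The other roles of the wider list held no called gene, although limma-voom with the replicate block called Slc8b1 higher (adjusted p = 0.0488, over the 18 alternatives 0.0488 to 0.275) and Calca lower (0.0458, over the 18 alternatives 0.0458 to 0.520). Slc8b1, the mitochondrial sodium and calcium exchanger, was at 26.9 ± 3.34 FPKM in controls and 34.4 ± 3.14 FPKM in cKO libraries (limma adjusted p = 0.138), and the groups overlapped. Cyp27b1, which makes the active form of vitamin D, was at 1.23 ± 0.474 and 2.09 ± 0.122 FPKM (limma adjusted p = 0.149). Among the store release channels, Itpr1 was at 4.58 ± 1.00 and 3.43 ± 0.400 FPKM and Tmco1 at 9.53 ± 0.387 and 10.8 ± 0.759 FPKM, with limma adjusted p of 0.260 and 0.274. Itpr3 was the most abundant of that role, at 11.1 ± 0.723 and 11.8 ± 0.544 FPKM. The most abundant genes of the other roles also overlapped between the groups. These were Saraf, a brake on store-operated entry, at 47.2 ± 3.14 and 45.8 ± 4.51 FPKM, Tmem165, a Golgi calcium and manganese transporter, at 30.1 ± 0.267 and 33.0 ± 2.35 FPKM, the mechanically gated channel Piezo1 at 20.3 ± 3.07 and 18.6 ± 0.808 FPKM, and Smdt1 of the mitochondrial uniporter at 35.0 ± 6.57 and 36.3 ± 5.42 FPKM. S100a11, a cytosolic calcium binder, was at 726 ± 81.8 and 659 ± 63.6 FPKM, the plasma membrane pump Atp2b4 at 2.16 ± 0.393 and 2.10 ± 0.316 FPKM, and Calca, which encodes calcitonin and the peptide CGRP, at 67.5 ± 10.1 and 53.8 ± 9.45 FPKM. Atp2a1, the top gene of the remaining reticulum pumps and their regulators, was near 0 in both groups, at 0.123 and 0.0944 FPKM. The values of Piezo1 and Atp2a1 are uncertain, because exons of each overlap a gene on the opposite strand, Ctu2 (up to 895 reads per library) and Rabep2 (up to 310).

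Other cell types were followed by summed marker FPKM, and no marker gene was at 0 in all libraries. Hormone-sensing luminal markers summed to 41.9 ± 7.94 FPKM in controls and 29.9 ± 3.59 FPKM in cKO libraries with no overlap, led by Areg at 19.6 and 14.5 FPKM, and of the 6 tested of 7 listed, 1 was called lower, Cited1. Areg itself overlapped between the groups, and 2 of the 6, Pgr and Prlr, had slightly higher means in the cKO group. Adipocyte markers, led by Cfd at 2.04 and 13.2 FPKM, had 4 of 6 genes tested, all 4 higher on average in the cKO group, and 1 of these was called, Cidec. Endothelial markers summed to 77.5 ± 4.14 and 64.6 ± 11.1 FPKM and were led by Cdh5 at 36.1 and 31.0 FPKM, and of the 6, all tested, 1 was called lower, Vwf. Over all genes tested 0.892% were called. Cited1, Pgr, Prlr, Cidec and Vwf were named after their values had been seen. Luminal markers summed to 5119 ± 521 and 5030 ± 722 FPKM, myoepithelial markers to 1906 ± 298 and 1867 ± 271 FPKM, fibroblast markers to 645 ± 240 and 491 ± 174 FPKM, macrophage markers to 94.6 ± 13.0 and 71.5 ± 12.0 FPKM and platelet and red cell markers to 33.8 ± 4.66 and 25.8 ± 4.91 FPKM, all with overlap. Of the 5 macrophage genes, all tested, none was called, and the cKO mean was lower for all 5. An unadjusted limma p under 0.05 was reached by 2 of them (16.4% of all genes tested), and 2 had no overlap between the groups (10.7%). The cKO mean on the log2 scale was also lower for every tested gene of 4 other lists. These were fibroblast (6 tested), endothelial (6), lymphocyte (5) and platelet and red cell (4). In that order, 0, 3, 2 and 1 genes had an unadjusted limma p under 0.05, and 0, 1, 1 and 0 had no overlap. Skeletal muscle markers summed to 1.34 ± 0.293 and 1.72 ± 0.499 FPKM, nerve and Schwann cell markers to 76.4 ± 5.07 and 76.6 ± 9.13 FPKM, and genes that respond to tissue digestion to 1115 ± 97.9 and 1328 ± 485 FPKM, also with overlap, the last with cKO replicate 4 apart as given above. In the same order of groups, the most abundant genes of these lists were Col3a1 of fibroblasts at 238 and 175 FPKM and C1qa of macrophages at 63.4 and 45.2 FPKM. Hba-a1 led the platelet and red cell list at 18.2 and 12.9 FPKM, and Junb the digestion genes at 343 and 324 FPKM. Mylpf led the muscle list at 0.692 and 0.599 FPKM. Acta1 of the muscle list, named after its values had been seen, was at 0.280 and 0.801 FPKM. Sox10 led the nerve and Schwann cell list at 63.4 and 69.7 FPKM and set most of its sum. Which cells the Sox10 RNA came from was not tested. Of the 4 tested genes of that list none was called, and the cKO mean was higher for 1 and lower for 3. Among the lower genes, 2 had an unadjusted limma p under 0.05 (16.4% of all genes tested), and 2 had no overlap (10.7%). The luminal sum is set by abundant keratins and Epcam, and Elf5 of the same list, a regulator of alveolar cells, was at 21.3 ± 3.92 and 38.5 ± 8.02 FPKM with no overlap (limma adjusted p = 0.0591). The sum of the myoepithelial markers joins genes whose group means differed in opposite directions. Of its 10 genes none was called, but 3 had an unadjusted limma p under 0.05, against 16.4% of all genes tested. Oxtr was at 2.62 ± 0.329 and 5.65 ± 1.71 FPKM (limma adjusted p = 0.0644) and Trp63 at 3.58 ± 0.576 and 2.45 ± 0.594 FPKM (0.181), both with no overlap, and Krt14, given above, overlapped between the groups (0.209). Elf5, Oxtr, Trp63 and Krt14 were also named after their values had been seen. The part of these markers in the calcium gene values was not tested.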

How the data were processed

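Mammary epithelial RNA of 4 control and 4 cKO mice was sequenced at pregnancy day 14.5. The authors prepared NEBNext Ultra libraries, aligned them with Hisat2 (build GRCm38) and deposited FPKM values of 55933 genes. The submitters' processing notes name StringTie 1.3.3b, featureCounts 1.5.0-p3 and the build mm9, but 99.68% of the 55394 genes found in GENCODE vM21 lie at the positions given there, and positions are therefore printed as GRCm38. Gene coordinates, names and length, the other values per gene in the deposited table, were used as given. FPKM times gene length, divided by a step estimated for each library, gave whole reads (tolerance 0.01) for 100% of values, and these steps show that the authors' FPKM include median-of-ratios size factors. The authors tested with DESeq2. Since FPKM are not counts, limma 3.58.1 in R 4.3.3 was used on log2(FPKM + 1) with empirical Bayes trend, group as the only term, and Benjamini-Hochberg adjustment over genes averaging 0.5 FPKM or more. The procedure was checked on simulated data. Python 3.11.15, pandas 2.3.3, numpy 2.4.6, scipy 1.17.1 and matplotlib 3.10.9 did the rest.

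Members, lists and tests were chosen with earlier results of these data known. Named genes are the 10 members, in each role of the wider list the most abundant gene and each with an unadjusted limma p under 0.05, the most abundant gene of each marker list and Bmpr1a. Of 68 wider genes 67 were matched, Septin7 by its synonym and Arln not, and all 88 marker genes were matched. Alternatives were a pseudocount of 0.1, scaling to equal sums (TPM) with and without the milk genes, no filter, a minimum of 1, no trend, limma-voom on recovered reads, blocks by replicate number or by replicate set (1 with 2, 3 with 4), and each library left out. No pair of libraries in a group agreed within counting noise (chi-square per degree of freedom at least 8.92). Depth limits the precision of genes with few reads, and for some well-covered genes, such as Stim1, the spread between control mice was no larger than counting error.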

Additional observations from a re-analysis of the deposited data

Results flagged for a closer look

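In groups of 4, a library far from the other 3 was seen for 2 of the 58 gene and group pairs examined, where chance alone gives about 2.9. Atp2a2, the main reticulum pump, was at 75.7 FPKM in cKO replicate 4 and at 71.5 to 72.0 FPKM in the other cKO libraries, which still lies inside the control range. Rcn2, a calcium-binding protein of the secretory pathway, was at 8.16 FPKM in control replicate 3 and at 9.46 to 9.71 FPKM in the other controls, and this lowest control is nearly level with the highest cKO library.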

How the results depend on the processing

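Limma called 135 genes as reported and 10 without a filter, against 252 by limma-voom, 680 by limma-voom with the replicate block, 442 with replicate sets (1 with 2, 3 with 4) as the block, and 0 to 78 with 1 library left out, where fewer samples enter the test. At an unadjusted limma p under 0.05 there were at least 2042 genes in every setting. Of the 10 calcium genes, 0 were called by limma without a filter and 0 to 1 with 1 library left out, with 3 to 4 at an unadjusted p under 0.05 in these settings. Of the wider list, 0 were called without a filter, 2 by limma-voom, 4 by limma-voom with the replicate block (Nucb2, Rcn1, Slc8b1 and Calca), 2 with the block of replicate sets and 0 to 1 with 1 library left out. At an unadjusted limma p under 0.05 the wider list had 13 genes with each of the 3 blocks, where all genes tested had 3124 to 3389. It had 5 to 9 with 1 library left out, where all genes tested had 2042 to 2514. As reported, the counts were 8 for the wider list and 2480 for all genes tested.

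Control and cKO libraries of the same number correlated at 0.0797 to 0.137 in their deviations from the group means, over 0.1 in 3 of 4 pairs, and 3 of 8 libraries correlated best with their own number, so the numbers were not taken to pair the mice. Libraries did deviate together by set: 0.0873 to 0.178 for other numbers of the same set (1 with 2, 3 with 4) and -0.21 to -0.072 across sets. With sets as the block Atp2b1 was not called (limma adjusted p = 0.113). With the replicate block 50 genes were called, 0 of the 10 calcium genes (limma adjusted p = 0.0633 for Atp2c2) and 0 of the wider list (0.0531 for Nucb2). At an unadjusted limma p under 0.05 with that block were 5 of the 8 tested calcium genes and 3124 genes in all. By limma-voom with that block 5 of the 8 were, and 3389 genes in all.

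Among the named calcium genes that were fitted under the alternatives, signs turned there only for genes near no difference. Orai1 was at -0.0248 (TPM) and from -0.0611 to 0.141 with 1 library left out, Smdt1 at -0.0033 (TPM) and from -0.0400 to 0.151, Atp2b4 from -0.0866 to 0.0463, and Saraf from -0.106 to 0.0058. Direction was the same in all 18 alternatives for the other 7 tested members. Causes of these shifts were not tested. Differences in Casr and Atp2b2 are limited by depth.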
